A study of Mus musculus with 6 samples.

Results

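Vipr2 and 8 further receptor genes for signals that nerves release were measured in CCR6+ group 3 innate lymphoid cells (ILC3s) of the mouse small intestine. The genes were taken as a named list: the receptors for vasoactive intestinal peptide (VIP) and PACAP (Vipr1, Vipr2 and Adcyap1r1), the subunits of the receptors for calcitonin gene-related peptide (CGRP) and adrenomedullin (Calcrl, Ramp1 and Ramp3), the neuromedin U receptor Nmur1, the substance P receptor Tacr1 and the neurotrophic receptor Ret. All 9 were measured, by 10 probe sets, among 19938 genes. The list was selected on the measured group difference of Vipr2, RANKL-deficient against control, so the group differences of these 9 genes are given as a description. The 9 genes also entered a fit over all genes, given below, and nothing is read from their p-values there.

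Both groups of the study were adult C57BL/6 mice with floxed Tnfsf11 alleles, the gene of the cytokine RANKL. The control group (Tnfsf11fl/fl) holds 3 arrays, and the RANKL-deficient group holds 3 arrays from mice that carry a Cre transgene with the same floxed alleles. The labels name no Cre in the controls, so an effect of Cre and the loss of RANKL cannot be told apart. Cells were sorted from the lamina propria without culture, and the labels do not say whether the arrays of a group came from separate mice.

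ILC3s guard the gut barrier with cytokines such as IL-22 and IL-17, and CCR6 marks those related to lymphoid tissue inducer cells. They lie close to enteric nerve fibres. VIP and PACAP bind class B G protein-coupled receptors that raise cyclic AMP (cAMP) through the G protein Gs, which activates protein kinase A and the transcription factor CREB. CGRP and adrenomedullin act through the same kind of receptor, built from the protein of Calcrl and an accessory protein: RAMP1 makes a CGRP receptor, while RAMP2 or RAMP3 makes an adrenomedullin receptor. RET is a receptor tyrosine kinase that binds glial cell line-derived neurotrophic factors together with a GFR alpha co-receptor.

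Markers of the labelled cell type were well expressed. Il7r, the IL-7 receptor chain, had a log2 expression of 12.28 ± 0.03 (SD, n = 3) on the control and 12.26 ± 0.03 (SD, n = 3) on the RANKL-deficient arrays, and Kit had 10.85 ± 0.09 and 10.82 ± 0.05. Ccr6, the sorting marker, measured 9.13 ± 0.62 and 9.45 ± 0.15. Il22 was not analysed here. The probe set of Tnfsf11 read 8.47 ± 0.26 in the control and 8.51 ± 0.15 in the RANKL-deficient group. Its place relative to the floxed exons is not given in the sources used here, so it checks nothing about the deletion. Control array 1 stood apart, correlating least with the rest (mean r across genes 0.960, against 0.970 to 0.977). Values without it are given beside some of the results that it moves, and not beside all of them.

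The upstream sequences of Vipr2, Ramp1 and Calcrl are shown because Vipr2 had the largest lower and Ramp1 the largest higher value of the 9 genes, and Calcrl and Ramp1 encode the 2 parts of the CGRP receptor and were low together on control array 1. They are the 250 bases before the start of the RefSeq gene (build GRCm38.p6), with GGGCGG, the core of the GC box bound by SP1, in capitals on either strand.
Vipr2, chr12:116077476-116077725, plus strand: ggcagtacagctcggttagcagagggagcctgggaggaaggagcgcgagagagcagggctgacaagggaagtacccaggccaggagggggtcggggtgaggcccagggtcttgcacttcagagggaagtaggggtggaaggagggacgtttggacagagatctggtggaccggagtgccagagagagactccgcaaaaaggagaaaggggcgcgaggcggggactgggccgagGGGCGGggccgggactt
Ramp1, chr1:91179572-91179821, plus strand: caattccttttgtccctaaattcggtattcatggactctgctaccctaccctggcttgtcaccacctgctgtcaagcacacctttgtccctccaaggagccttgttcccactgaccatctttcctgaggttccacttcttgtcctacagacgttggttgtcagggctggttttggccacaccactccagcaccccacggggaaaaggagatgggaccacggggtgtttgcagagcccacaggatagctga
Calcrl, chr2:84425267-84425516, minus strand: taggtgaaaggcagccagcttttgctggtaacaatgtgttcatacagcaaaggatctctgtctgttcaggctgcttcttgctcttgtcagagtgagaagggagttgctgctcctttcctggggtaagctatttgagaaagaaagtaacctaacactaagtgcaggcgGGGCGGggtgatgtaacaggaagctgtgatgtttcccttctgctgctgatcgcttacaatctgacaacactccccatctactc
The Vipr2 window had a GC content of 65.2%, against 54.0% for Ramp1, 48.4% for Calcrl and a median of 52.4% over 32851 such windows. GGGCGG stood once in the windows of Vipr2 and Calcrl and in 32.7% of all windows. The cAMP response element TGACGTCA (1.55% of all windows) and its shorter form TGACG (17.8%, those in the longer element included), searched on both strands, were in none of these 3 windows. These letters were searched in these windows only.

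Vipr2 was lower in RANKL-deficient cells on every array, and it was the 1 receptor of the 9 with all RANKL-deficient arrays below all controls. It encodes VPAC2, which binds VIP and PACAP. The control arrays 1, 2 and 3 read 8.40, 8.64 and 8.41 on the log2 scale, and the RANKL-deficient arrays 7.40, 7.005 and 7.36. The groups were 0.99 log2 units apart at their nearest arrays, a gap wider than the spread within either group. The control mean was 8.48 ± 0.14 (SD, n = 3) and the RANKL-deficient mean 7.25 ± 0.22 (SD, n = 3), a log2 difference of −1.23 (SE 0.16), or 2.34-fold less. In the whole table, 29 genes had a more negative difference. The difference lay between −1.30 and −1.10 when any 1 array was left out, and it was −1.15 without control arrays 1 and 2 together.

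The related receptors Vipr1 and Adcyap1r1 showed no such separation. Vipr1, which encodes VPAC1, measured 4.80, 4.92 and 4.91 on the control arrays and 4.92, 4.75 and 4.97 on the RANKL-deficient arrays. Its other probe set read 4.38 to 4.77 in control and 4.59 to 4.63 in RANKL-deficient cells. Both lay under 5.12, the median gene's mean. The files hold no background signal, so Vipr1 may have been too dim for a difference to show. Adcyap1r1, which encodes the PACAP receptor PAC1, read 5.58, 5.37 and 5.04 in control and 5.31, 5.06 and 5.03 in RANKL-deficient cells. Its groups overlapped, and the difference of −0.20 went to −0.074 without control array 1 and to 0.094 without control arrays 1 and 2.

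**Figure D1:**
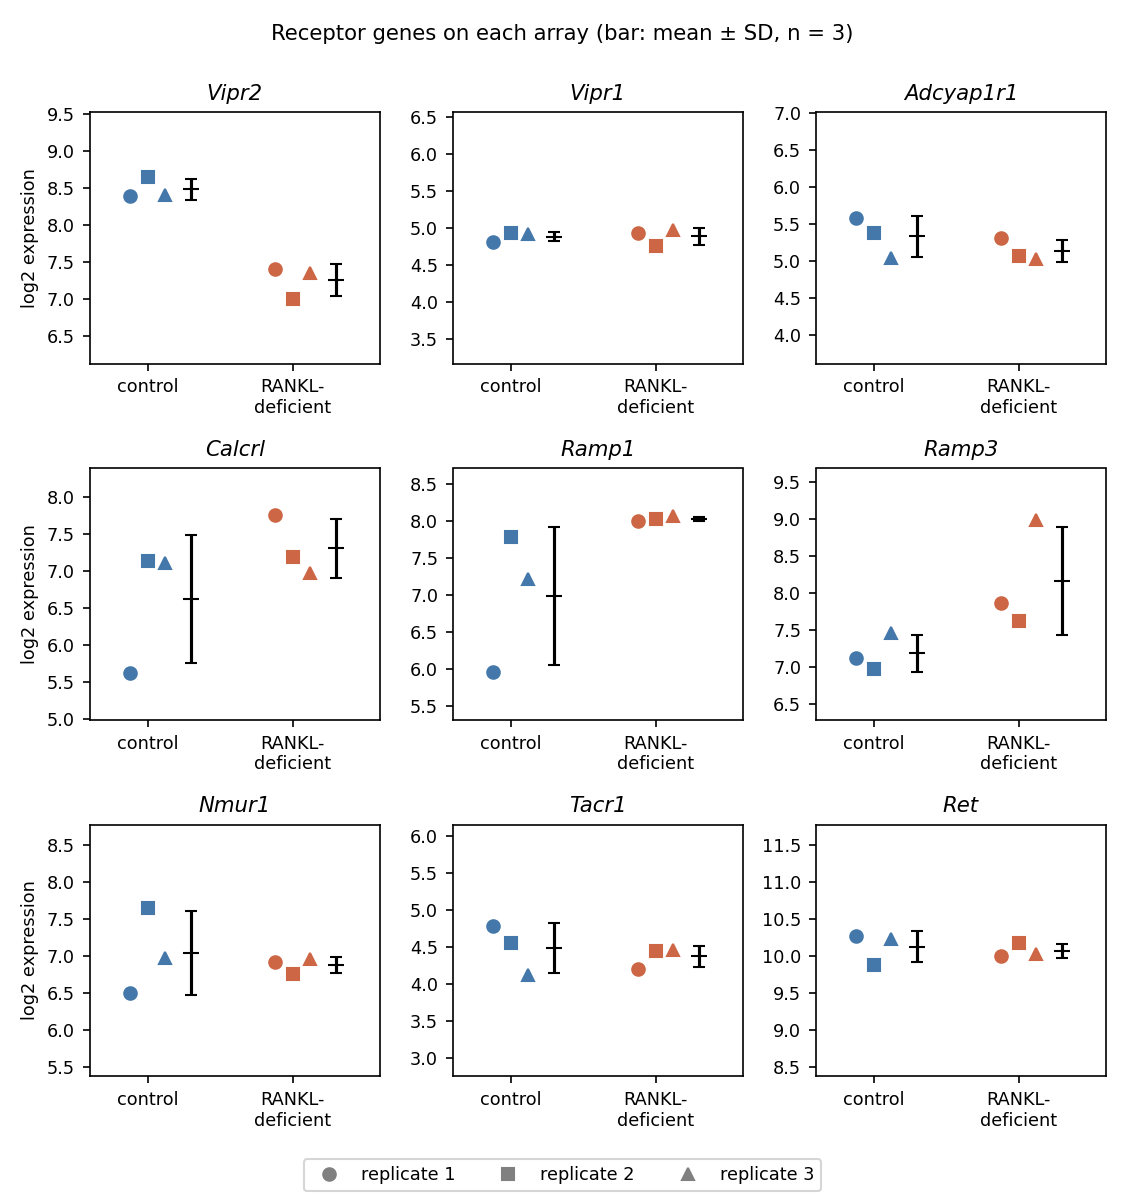
Log2 expression of each of the 9 receptor genes (y axis, the same span of 3.4 log2 units in every panel) on the 3 control and 3 RANKL-deficient arrays (points, shaped by replicate number), with the mean and SD of each group. The control arrays of Vipr2 (8.40 to 8.64) lay above its RANKL-deficient arrays (7.005 to 7.40), and control array 1 was the lowest point for Calcrl (5.61) and Ramp1 (5.96).

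The subunits of the CGRP and adrenomedullin receptors had higher mean values in RANKL-deficient cells, by amounts that rested on few arrays. Ramp1 read 5.96, 7.79 and 7.22 on control arrays 1, 2 and 3 and 8.01, 8.04 and 8.07 on the RANKL-deficient arrays. The RANKL-deficient arrays were nearly identical, while the controls spanned far more, with an SD of 0.94 against 0.029. The groups did not overlap, with 0.22 log2 units between the highest control and the lowest RANKL-deficient array. The difference of 1.05 (SE 0.42), a 2.06-fold higher mean, went to 0.53 without control array 1 and to 1.45 without control array 2. Control array 1 lay 2.05 below the median of the other arrays for Ramp1, and 0.411% of all genes lay as far below there.

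Calcrl, the shared receptor protein, followed Ramp1 on control array 1. It read 5.61, 7.12 and 7.11 in control and 7.75, 7.19 and 6.97 in RANKL-deficient cells. Apart from control array 1 the groups overlapped, and the difference of 0.69 (SE 0.43) went to 0.18 without that array. On control array 1 Calcrl lay 1.51 below the median of the others, as far below as 1.22% of genes.

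Ramp3 did not follow that array. It read 7.12, 6.97 and 7.46 in control and 7.86, 7.61 and 8.99 in RANKL-deficient cells. The groups did not overlap, but by 0.16 log2 units, and RANKL-deficient array 3 was far above the others. The difference of 0.97 (SE 0.35) went to 0.56 without RANKL-deficient array 3 and stayed at 0.94 without control array 1.

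Their partners that are no members of the list gave no common direction. Ramp2, the accessory protein of the other adrenomedullin receptor, read 5.61, 4.20 and 5.24 in control and 4.91, 4.53 and 4.52 in RANKL-deficient cells, so control array 1 was the highest here. Crcp, which encodes a component that couples the CGRP receptor to its signal, read 5.85, 7.20 and 6.90 in control and 6.73, 7.36 and 7.52 in RANKL-deficient cells. Its difference of 0.56 (SE 0.37) went to 0.16 without control array 1.

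**Figure D2:**
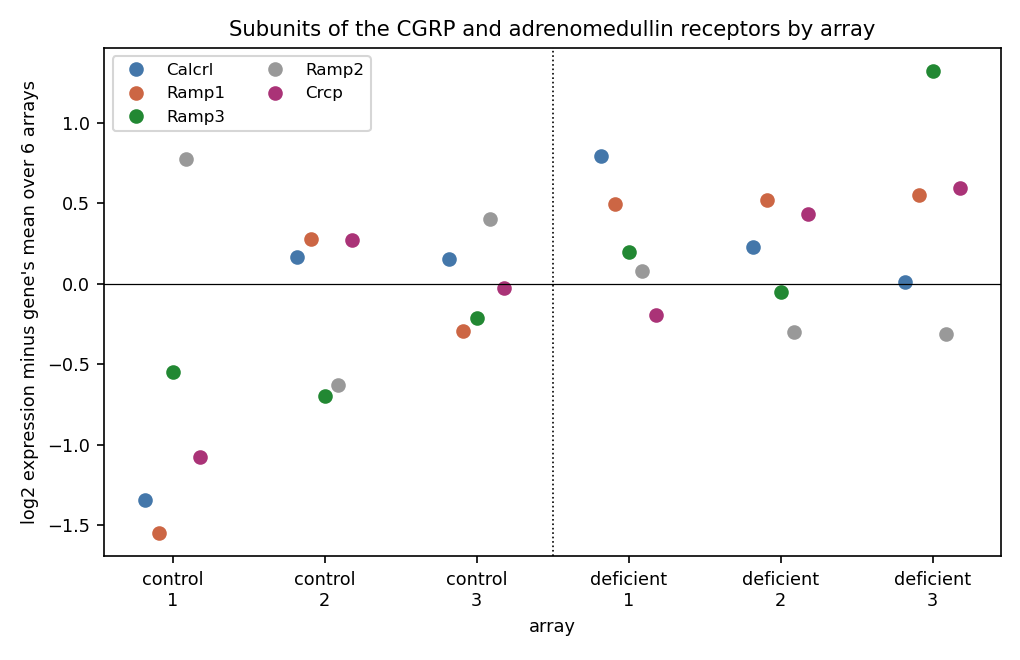
Log2 expression of Calcrl, Ramp1, Ramp3, Ramp2 and Crcp on each array, as the deviation from that gene's mean over the 6 arrays (y axis, log2 units; x axis, array). Calcrl, Ramp1 and Crcp were lowest on control array 1, where Ramp2 was highest, and Ramp3 was highest on RANKL-deficient array 3 (8.99 on the scale of the file).

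Among the remaining receptors the groups overlapped for each gene. Nmur1, through which neuromedin U acts and which is best known from group 2 innate lymphoid cells (ILC2s), read 6.51, 7.65 and 6.98 in control and 6.93, 6.76 and 6.97 in RANKL-deficient cells. The controls enclosed all RANKL-deficient values, and the difference of −0.16 (SE 0.28) went to −0.43 without control array 1 and to 0.14 without control array 2. Tacr1, which encodes the substance P receptor NK1, read 4.78, 4.55 and 4.12 in control and 4.20, 4.45 and 4.46 in RANKL-deficient cells. It lay below that median on every array, and its difference of −0.11 turned to 0.039 without control array 1.

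Ret was measured well above that median and differed little. It read 10.27, 9.89 and 10.24 in control and 10.00, 10.17 and 10.04 in RANKL-deficient cells. The difference of −0.061 (SE 0.15) stayed between −0.18 and 0.0085 without any 1 array. Its co-receptor genes Gfra1, Gfra2, Gfra3 and Gfra4 had means of 4.58 to 5.15 in both groups, with differences of −0.17, −0.11, 0.07 and −0.05. The sign for Gfra3 turned without control array 3, to −0.0027.

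In the fit over all genes with limma (Benjamini-Hochberg adjustment), 0 of the 9 receptors passed an adjusted p of 0.05, as 0.00502% of all genes did; that share is the 1 gene Ccr2, a chemokine receptor named after its values were seen. An unadjusted p under 0.05 was reached by 3 of the 9 (Vipr2, Ramp1 and Ramp3), against 8.15% of all genes. Groups that did not overlap were found for 2 with higher values (5.28% of all genes) and 1 with lower values (9.08%). The list was chosen with these values known, and nothing is read from these counts. The median difference of the 9 was −0.061, beside −0.054 over all genes.

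**Figure D3:**
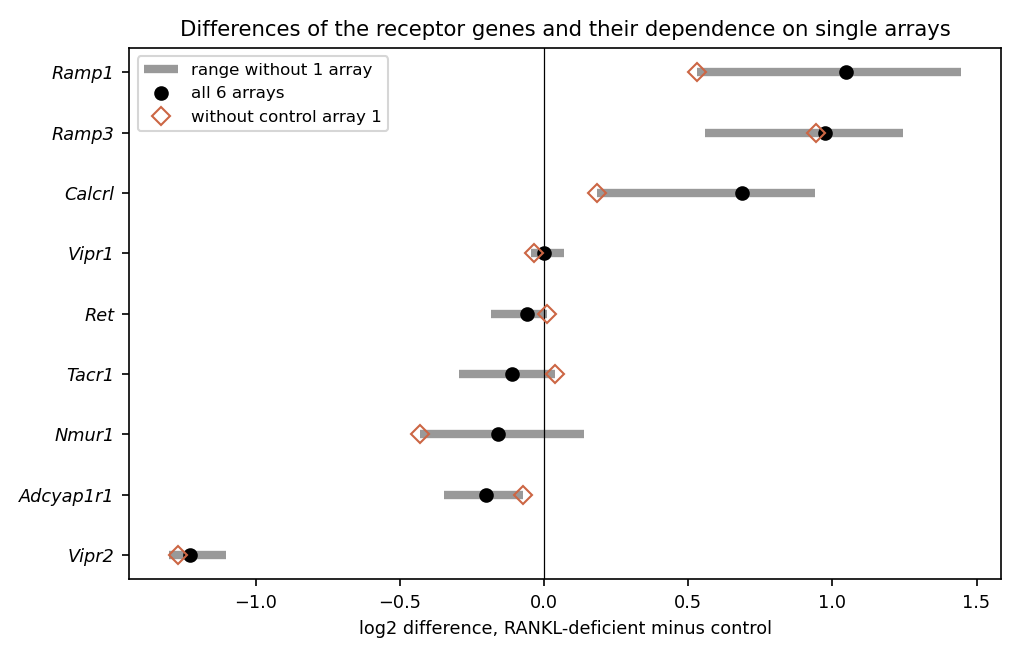
Log2 difference of each receptor gene, RANKL-deficient minus control (x axis), over all 6 arrays (filled circles), with the range of the values obtained when each array is left out in turn (grey bars) and the value without control array 1 (open diamonds). Vipr2 stayed between −1.30 and −1.10, while Ramp1 went from 1.05 to 0.53 and Calcrl from 0.69 to 0.18 without control array 1.

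The genes whose values followed Vipr2 most closely over the 6 arrays were Zfp652 (Pearson r 0.99), Hspa1a (0.98), Rpl39l (0.97), Nos2 (0.95) and Zswim1 (0.94), of 3264 genes whose mean exceeded that median and which had a range of at least 1 log2 unit. Zfp652 encodes a zinc finger repressor, Hspa1a an inducible HSP70 chaperone and Nos2 the inducible nitric oxide synthase. The 6 points fall into the 2 groups, so a gene that differs between them scores high by that alone. Within the groups, the correlation of the deviations from the group means with those of Vipr2 was 0.92 for Zfp652 and 0.42 for Nos2. Zfp652 read 9.77, 9.91 and 9.82 in control and 9.28, 8.79 and 9.11 in RANKL-deficient cells, with array 2 the highest of its group in control and the lowest in RANKL-deficient cells, as for Vipr2. Hspa1a has a near-identical copy, so its signal may be shared.

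The ligands of these receptors were mostly dim, apart from Vip. Of 14 measured ligand genes, 0 passed the adjusted threshold in either direction by limma, and at an unadjusted p under 0.05 there was 1 lower (3.90% of all genes) and 0 higher (4.25%). That gene was Artn, which encodes the RET ligand artemin, with a difference of −0.37 (SE 0.14). Nmu, the neuromedin U gene, had −0.43 (SE 0.19). Adm, the adrenomedullin gene, had a larger difference of −0.80, without an unadjusted p under 0.05 by limma. Vip itself read 9.001, 7.68 and 6.57 in control and 6.50, 7.18 and 4.13 in RANKL-deficient cells. The groups overlapped and each was spread widely, and the difference of −1.81 (SE 0.88) lay between −2.44 and −0.91 without any 1 array, the latter without RANKL-deficient array 3, and was −1.19 without control array 1.

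Most markers of nerve cells and glia had lower values in RANKL-deficient cells, as most dim genes did, but with a more negative median. Of 18 measured neuron and enteric glia markers, a list that includes Vip itself, 16 were lower, beside 75.6% of all genes below the median gene's mean. The list median was −0.26, and it was −0.24 without control array 1 and −0.21 without control arrays 1 and 2. Over all genes below the median gene's mean, the median was −0.10, and −0.046 without control array 1. Within the list, Tac1 and Erbb3 were higher by 0.30 and 0.02. By limma 0 passed the adjusted threshold, and 4 were lower (3.90% of all genes) and 0 higher (4.25%) at an unadjusted p under 0.05. Their mean log2 value was 5.15, 4.89 and 4.73 on control arrays 1, 2 and 3 and 4.51 to 4.57 on the RANKL-deficient arrays, without overlap. Their summed level, as the log2 of the sum of linear values, was 9.15 to 10.13 in control and 8.92 to 9.06 in RANKL-deficient cells. The glial gene S100b read 6.18, 5.35 and 4.76 in control and 4.24, 4.76 and 4.27 in RANKL-deficient cells, while the glial regulator Sox10 had 5.68 ± 0.15 and 5.59 ± 0.16. Vipr2 read 8.40, 8.64 and 8.41 on control arrays 1, 2 and 3. The part of these markers in the values of Vip and Vipr2 was not tested, and in sorted bulk RNA fewer cells of a type and less RNA per cell cannot be told apart.

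Other marker lists concern cell types that are known to carry some of these receptors. For their counts, 60.5% of all genes had lower values in RANKL-deficient cells, and 75.6% of genes below the median gene's mean. The endothelial and stromal list, whose cells are a known site of Calcrl, Ramp2 and Ramp3, had 14 of 16 members lower in RANKL-deficient cells, with a mean log2 value of 5.30 to 5.51 in control and 5.10 to 5.15 in RANKL-deficient cells and a summed level of 10.10 to 10.44 and 9.88 to 9.93. Calcrl and Ramp3 had differences of 0.69 and 0.97, or 0.18 and 0.94 without control array 1. The Ramp2 difference was −0.36 (SE 0.35), and −0.065 without control array 1. The endothelial genes Cdh5 and Kdr measured 4.32 ± 0.02 and 3.72 ± 0.18 in control cells. Pecam1, which endothelial and some blood cells express, was well above them, with 8.11 ± 0.32 on the control and 7.87 ± 0.22 on the RANKL-deficient arrays. ILC2 markers had 8 of 12 members lower, with overlapping means of 5.79 to 5.98 and 5.73 to 5.90 and summed levels of 11.44 to 11.46 and 11.39 to 11.48. T cell markers had 11 of 14 lower with a median of −0.027, and means of 5.36 to 5.65 and 5.20 to 5.43 and summed levels of 10.45 to 10.58 and 10.52 to 10.68. Cd3g, a chain of the T cell receptor complex, read 7.32, 6.93 and 5.82 in control and 5.26, 4.20 and 4.89 in RANKL-deficient cells. Ctla4 had −0.80, and Cd3e had −0.70 (SE 0.31) with overlapping groups, or −0.39 without control array 1. Lat and Cd3d had higher values in RANKL-deficient cells, by 0.51 and 0.26. The part of these cell types in the receptor values was not tested.

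**Figure D4:**
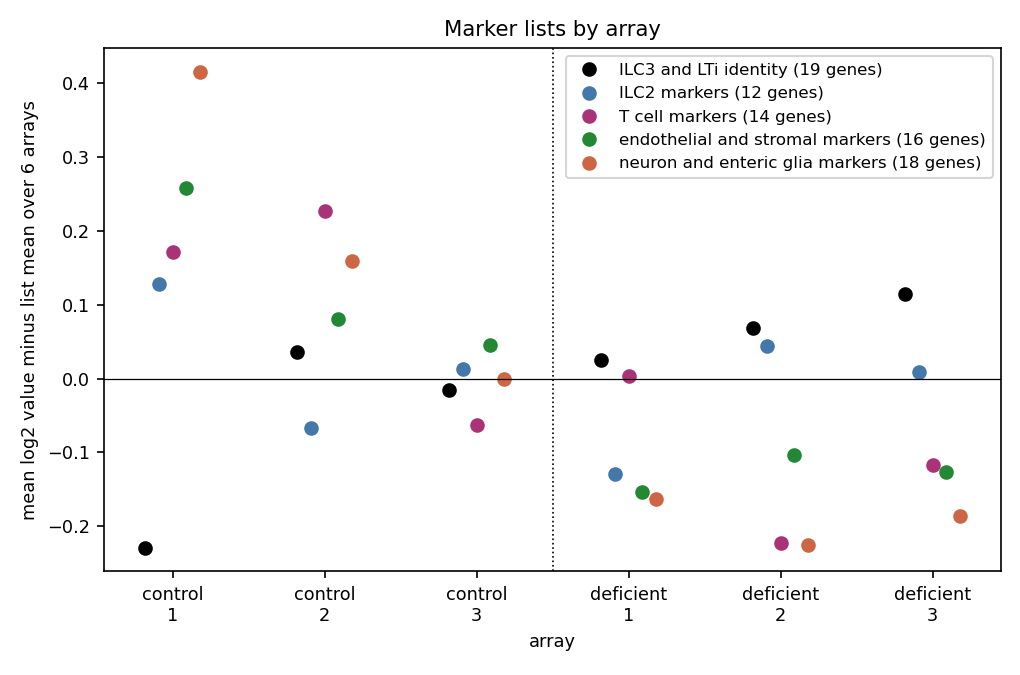
Mean log2 value of 5 marker lists on each array, as the deviation from the list's mean over the 6 arrays (y axis, log2 units; x axis, array). The neuron and glia list was highest on control array 1 (mean 5.15) and lay lower on every RANKL-deficient array (4.51 to 4.57) than on every control array, while the ILC3 and lymphoid tissue inducer (LTi) list was lowest on control array 1.

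Receptors for other transmitters and peptides were mostly as dim as Vipr1. In 6 lists of related receptors 124 genes were measured, of which 103 had a mean below the median of all genes. Lower values in RANKL-deficient cells were found for 104 of the 124, with a median difference of −0.12. Over all genes below that median, 75.6% had lower values and the median was −0.10. Without control array 1 the median of the 124 was −0.051. By limma 0 passed the adjusted threshold, and 7 were lower (3.90% of all genes) and 0 higher (4.25%) at an unadjusted p under 0.05.

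The largest of these differences was that of Chrna3, a subunit of the nicotinic acetylcholine receptor of autonomic nerve cells. It read 5.45, 4.80 and 5.57 in control and 4.26, 3.99 and 4.23 in RANKL-deficient cells, without overlap, a difference of −1.11 (SE 0.22). Chrnb4, the subunit it pairs with, had −0.45 (SE 0.18), and Chrna9 had −0.43 (SE 0.20). The acetylcholine receptor list had 17 of 18 members lower and a median of −0.14, which went to −0.041 without control array 1 and to 0.047 without control arrays 1 and 2. Of the adrenergic receptors 2 of 9 were measured here, Adra1b with −0.56 (SE 0.17) and Adra2c with −0.22 (SE 0.16). Tacr2, the neurokinin A receptor, had −0.46 (SE 0.14), the glucagon receptor gene Gcgr −0.31 (SE 0.14), and Nmur2, the other neuromedin U receptor, −0.15 (SE 0.17). Among other neuropeptide receptors 35 of 40 were lower, and their median of −0.11 went to −0.033 without control array 1 and to 0.060 without control arrays 1 and 2. Of these, the bombesin receptor Grpr had −0.60 (SE 0.24), the gastrin receptor Cckbr −0.33 and the kappa opioid receptor Oprk1 −0.28. Of the neurotrophic receptors, 17 of 22 were lower with a median of −0.17 (−0.084 without control array 1 and −0.024 without control arrays 1 and 2), Lepr, Fgfr3 and Egfr with −0.34, −0.25 and −0.26. In the list of serotonin, dopamine, GABA and glutamate receptors, 18 of 22 were lower with a median of −0.095 (0.0042 without control arrays 1 and 2), and Htr3a, Drd2 and Drd3 had −0.22, −0.22 and −0.23. Without control array 1 the values of Drd2 and Drd3 were −0.10 and −0.11.

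**Figure D5:**
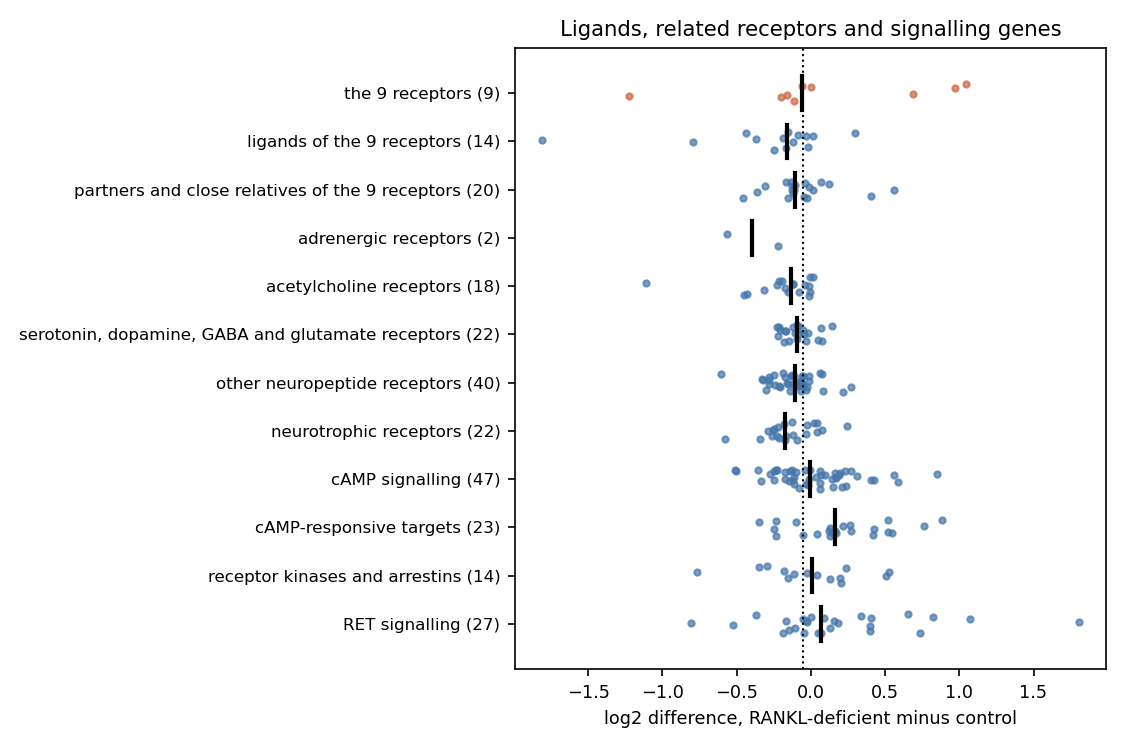
Log2 difference of every measured gene, RANKL-deficient minus control (x axis), in the list of 9 receptors and in the lists of ligands, related receptors and signalling genes (rows, number measured in parentheses). Points are genes, black bars list medians and the dotted line the median of all genes (−0.054); over all 6 arrays receptor lists other than the 9 lay between medians of −0.39 and −0.095, and cAMP-responsive targets at 0.16.

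Genes of cAMP signalling, a list that also holds alpha subunits of G proteins other than Gs, were divided between both directions. Most genes that cAMP can induce had higher values. Of 47 measured genes of cAMP signalling, 23 were higher and 24 lower, with a median of −0.0039. By limma 0 passed the adjusted threshold, and 1 was higher (4.25% of all genes) and 2 lower (3.90%) at an unadjusted p under 0.05. Prkar1a, a regulatory subunit of protein kinase A, had 0.85 (SE 0.34), which went to 0.51 without control array 1 and to 0.11 without control arrays 1 and 2. The phosphodiesterase gene Pde3a had −0.51 (SE 0.14). Gnaq, the G protein alpha subunit that couples receptors such as NMUR1 and NK1 to phospholipase C, read 7.14, 6.79 and 7.27 in control and 6.46, 6.70 and 6.52 in RANKL-deficient cells, without overlap, a difference of −0.51 (SE 0.16).

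Of 23 cAMP-responsive targets, 17 had higher values, with a median of 0.16. The list was bright, with mean log2 values of 7.82 to 8.22 on the arrays. Over all genes above the median gene's mean, 45.3% had lower values and the median was 0.033. By limma 0 passed the adjusted threshold, and 5 were higher (4.25% of all genes) and 1 lower (3.90%) at an unadjusted p under 0.05. Fos read 10.33, 10.34 and 10.40 in control and 10.96, 10.93 and 10.75 on the RANKL-deficient arrays, 0.52 apart (SE 0.12). Dusp1, a phosphatase of MAP kinases, and the clock gene Per1 had 0.52 (SE 0.15) and 0.42 (SE 0.14), also without overlap. These genes answer many stimuli, cell isolation among them. Crem, a classic CREB target, overlapped between the groups with a difference of 0.27 (SE 0.17). The list median was 0.17 without control array 1 and 0.094 without control arrays 1 and 2.

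The list of receptor kinases and arrestins, which switch off G protein-coupled receptors, also held RGS genes, which encode G protein regulators. Its 14 measured genes, RGS genes included, were split 7 higher and 7 lower, with a median of 0.0079. At the adjusted threshold of limma 0 passed, and 1 was lower (3.90% of all genes) and 0 higher (4.25%) at an unadjusted p under 0.05. Grk5, a receptor kinase, had −0.77 (SE 0.34) with overlapping groups, −0.52 without control array 1 and −0.48 without RANKL-deficient array 3. The G protein regulator Rgs16 and the receptor kinase Grk1 had −0.35 and −0.30.

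Around RET, several genes of the signalling list differed by more than Ret did. Of 27 measured, 16 were higher and 11 lower with a median of 0.068. By limma 0 passed the adjusted threshold, and 4 were higher (4.25% of all genes) and 2 lower (3.90%) at an unadjusted p under 0.05. The list median went to 0.032 without control array 1 and to −0.013 without control arrays 1 and 2. Etv5, an ETS transcription factor induced by RET and by other receptor kinases, read 7.69, 7.07 and 7.09 in control and 8.62, 9.81 and 8.85 in RANKL-deficient cells, without overlap. Its difference was 1.81 (SE 0.33), and its other probe set gave 0.74. The adaptors Grb10 and Dok2, neither of them limited to RET, had 1.07 (SE 0.22) and 0.82 (SE 0.12), and both were as large without control array 1 (1.19 and 0.86). Among the 11 genes with lower values, Src and Ptprf had −0.81 and −0.52.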

How the data were processed

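The file deposited by the authors holds log2 values for 35556 probe sets on each of 6 arrays. The submitters' processing notes name RMA and Affymetrix Expression Console. Their settings, their versions and a genome build were not given in the sources. RNA was amplified from 2 ng, per the labels' protocols. Names came from the platform annotation, with symbols updated by Entrez identifier to RefSeq (GRCm38.p6, 19855 of 19938 genes matched). Of the probe sets, 21789 had 1 symbol; those with several (1621) or none (12146) named no gene. A gene with more than 1 probe set was taken by the one with the highest mean. No filter on low values was applied.

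RANKL-deficient and control arrays were compared over all genes in R 4.3.3 with limma 3.58.1 (two-sided lmFit and eBayes fit, Benjamini-Hochberg adjustment, threshold 0.05, no replicate block). The p-values reflect the spread between these arrays alone, possibly technical, and the number of arrays limits the precision. The procedure was tested on simulated data. The members and all lists were chosen with earlier results of these data known. Named genes were the 9 receptors, their partners, the 3 genes with the smallest unadjusted p in each list, up to 3 marker genes of a list and the 5 genes most like Vipr2. Crem, Tnfsf11, Ccr2, Adm, Src, Ptprf and some further marker genes were named outside this rule. Alternatives were other normalizations, filters, probe set rules, a replicate block, array weights and left-out arrays. Some planned genes are not reported here.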

Additional observations from a re-analysis of the deposited data

How the results depend on the processing

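The Vipr2 difference of −1.23 kept its sign and moved by less than the spread between replicates under the 14 alternatives run on it (−1.31 after quantile normalization to −1.10 without RANKL-deficient array 2). Among these, the replicate block and the probe set rules could not move it by construction, as Vipr2 had 1 probe set. Of the other receptors, Calcrl, Ramp1 and Ramp3 kept their sign under all 14, and Adcyap1r1, Nmur1, Ret, Tacr1 and Vipr1 changed sign under 1, 1, 2, 2 and 5 of them. The replicate block left these differences unchanged too, as did the probe set rules for all but Vipr1. The count of 1 gene past the adjusted threshold became 0 with all probe sets, 0 with the replicate block and 0 without control arrays 1 and 2, and 2 with trend and robust eBayes; it lay between 0 and 1 without any 1 array, staying at 1 only without RANKL-deficient array 3. The cause was not tested. Same-numbered arrays of the 2 groups did not deviate together (correlations of −0.023, 0.050 and 0.027), so the numbers were not taken as pairs. Background correction could not be varied without scanner files. The design cannot separate Cre from the deletion, and dim receptors such as Vipr1 and Tacr1 may lie too near background for a difference to show.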
